A study of Mus musculus with 53 samples.

Results

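Genes of cholesterol synthesis, of its control by SREBP transcription factors and of cholesterol carriage between cells were described in the cortex of mouse embryos. The set was chosen by name as 29 genes: 18 enzymes of synthesis, 5 genes of SREBP control and 6 genes of cholesterol and lipoprotein handling. Of these, 28 were found among the 37991 gene IDs listed for the tissue. Hmgcs1, the synthase that makes the precursor of mevalonate, had no matching ID and has no value here. The set does not hold every gene of the pathway.

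The series sequenced messenger RNA from 53 mouse libraries in 19 groups of neurons, astrocytes and brain tissue, to ask how activity and adult plasticity act on expression through histone turnover. The group used here is cortical tissue of C57bl/6 embryos at E16.5, an untreated control with no stimulation and no transgene named in its labels. It holds 3 libraries, for which the authors gave a single mean RPKM of each gene, its reads per kilobase and per M reads sequenced. The other 50 libraries are not analysed here, so no group was compared with another, no test was possible and no p-value is given.

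Cholesterol is built from acetyl-CoA by way of mevalonate and squalene, and the first sterol, lanosterol, is then trimmed and reduced in many steps. When sterols run low in the membrane of the endoplasmic reticulum, Scap carries SREBP to the Golgi, where it is cut into an active transcription factor for these enzymes, while Insig proteins hold Scap back. Brain cholesterol is largely made within the brain because the blood-brain barrier keeps lipoproteins out, and in the adult brain astrocytes supply much of it on ApoE particles.

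Promoter sequence is shown first, because its letters can be set beside the levels of the same genes and the counts below turn on 1 box, CCAAT, which NF-Y binds. The 250 bases before each start, on both strands, were searched in RefSeq promoters (GRCm38.p6) of 24 members. Fdps, Fdft1, Sqle, Stard4 and Abcg1 were the others. CCAAT lay before 14 of 15 synthesis genes, all but Acat2, before 4 of 5 control genes, all but Scap, and before 1 of 4 handling genes, Cyp46a1. It lay before 37.5% of all genes with a promoter and before 41.0% of protein-coding genes at 1 RPKM or more. Each gene was counted once if any of its promoters held the box, and counted by promoter the shares were 14 of 18 for synthesis, 5 of 10 for control, 1 of 6 for handling and 33.8% of all. Pmvk, Dhcr7, Srebf1 and Insig2 held the box in some of their promoters and not in others. The Pmvk box lay before its annotated span of 14472 bases, and its other window lay inside that span. The length solved from the deposited value of Pmvk, as described below, was 9895 bases. Which start is used in this tissue was not tested. The windows below carry the copy nearest the start of 9 synthesis genes across the pathway and of Cyp46a1, in lower case with the box, or its reverse complement ATTGG, in capitals, on the strand of the gene.
Mvk (chr5:114444243-114444268, plus strand): tccagctctctgATTGGcctcaggaa
Mvd (chr8:122443433-122443461, minus strand): ccggccagcgggCCAATcatatggcagcg
Idi1 (chr13:8885580-8885605, plus strand): gtccaaggtgccATTGGctggcgacc
Lss (chr10:76531531-76531559, plus strand): ggtgatgctctgATTGGccgagctcgcat
Cyp51 (chr5:4104710-4104738, minus strand): cgctgtccgccaCCAATctggtcctgaga
Tm7sf2 (chr19:6067881-6067909, minus strand): ctcccagcgctgATTGGctactgtgctgg
Msmo1 (chr8:64733617-64733645, minus strand): gagtggggcggaCCAATtacgacaggcga
Ebp (chrX:8193551-8193579, minus strand): atccctgtactgATTGGttcgtcagattc
Sc5d (chr9:42264308-42264336, minus strand): cgccggctgctgATTGGccggctgcctgc
Cyp46a1 (chr12:108334151-108334179, plus strand): agccaggttgtgATTGGtgaatacttatc

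The distance from the box to the start was not fixed. In these windows the box ended 9 bases before the start in Mvk and Idi1, 19 in Sc5d, 22 in Mvd and 24 in Cyp51, and as many as 57 in Lss and 148 in Cyp46a1. Mvk held 5 copies within 250 bases, and Msmo1, Hsd17b7, Hmgcs1 and Insig2 held 3 each. The whole 250 bases before Mvd, a synthesis gene with CCAAT on both strands, and before the exporter Abca1, with none, show the contrast. Here the GC box GGGCGG, bound by Sp1, is in capitals as well.
Mvd (chr8:122443423-122443672, minus strand): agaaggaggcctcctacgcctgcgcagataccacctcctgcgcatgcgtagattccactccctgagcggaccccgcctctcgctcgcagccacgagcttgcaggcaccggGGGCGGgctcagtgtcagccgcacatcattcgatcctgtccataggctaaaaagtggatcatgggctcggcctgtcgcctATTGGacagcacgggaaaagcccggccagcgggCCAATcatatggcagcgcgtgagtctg
Abca1 (chr4:53159896-53160145, minus strand): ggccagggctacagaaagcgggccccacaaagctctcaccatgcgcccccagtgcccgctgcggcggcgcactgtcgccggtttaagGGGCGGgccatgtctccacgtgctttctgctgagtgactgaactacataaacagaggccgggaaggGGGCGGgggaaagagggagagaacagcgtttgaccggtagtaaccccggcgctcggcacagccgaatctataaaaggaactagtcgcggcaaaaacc

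The GC box GGGCGG was common in the set and, less so, among all expressed protein-coding genes. It lay before 14 of 15 synthesis genes, 5 of 5 control genes and 3 of 4 handling genes. Neither window searched for Pmvk held it, and other starts of Pmvk were not searched. It lay before 35.4% of all genes and 66.8% of protein-coding genes at 1 RPKM or more. A core of the sterol regulatory element, TCACNCCAC, was found before Hmgcs1 alone, and before 1.22% of all genes. The element varies between genes, and its other forms were not searched. These counts describe letters in a window and carry no test.

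Most of the set was expressed. Markers matched the labelled tissue: 5 of 5 neuron genes and 6 of 6 radial glia genes were at 1 RPKM or more, led by Neurod6 at 194 RPKM and Fabp7 at 102 RPKM. Astrocyte markers reached 1 RPKM in 1 of 5, Aldoc, with Gfap at 0.109 RPKM and Gjb6 at 0.00185 RPKM, and 0 of 5 microglia and 0 of 3 hepatocyte genes did so, with the liver gene Alb at 0.000710 RPKM. Endothelium (1 of 3, Cldn5 at 17.3 RPKM), pericytes (2 of 3) and myelin (1 of 4) reached 1 RPKM in part, and 3 of 3 globin genes stood at 48.3 to 53.6 RPKM. Per kilobase of exon, a scale explained below, 4 of 5 microglia, 3 of 3 endothelium and 3 of 3 pericyte genes reached 1. So did 3 of 4 myelin and 2 of 5 astrocyte genes, while hepatocyte genes stayed at 0 of 3. Of all protein-coding genes, 31.6% reached 1 RPKM and 54.1% reached 1 per kilobase of exon. Counts near these shares do not show that a cell type is present. The long microglia gene Cx3cr1 stood at 0.274 RPKM and at 10.2 per kilobase of exon. The tissue is a mixture, and fewer cells of a type and less RNA per cell cannot be told apart in it. The part of any cell type in the values below was not tested.

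At 1 RPKM or more stood 21 of the 28 measured members, where 18.8% of all listed gene IDs and 31.6% of protein-coding genes did. None was listed at 0, and 14 were at or above the 90th percentile of all IDs, of which 13565 were at 0. Among protein-coding genes fewer reached the 90th percentile, with Lss, Mvd, Msmo1, Sc5d and Srebf2 falling below it. The median member had 2.66 RPKM, against 0.214 RPKM for protein-coding genes and 0.450 RPKM for protein-coding genes listed above 0. The highest, Fdps at 10.8 RPKM, was 48.1 times the lowest, Abcg1 at 0.225 RPKM. Together the members held 0.237% of the reads estimated for all genes with a length.

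RPKM here is counted along the whole gene, introns included. Of the small values in genes with several exons, 661 of 1035 (63.9%) were worth a single read in 1 library when multiplied by the gene's span, and 35 of 1542 (2.27%) when multiplied by its exon length. The library totals behind both shares were themselves found with the span, so the second share is no independent test of exon length. Whether reads in introns were counted is not shown by it. With the whole gene as the length, long genes have low RPKM for their reads. Levels are also given per kilobase of exon, taking all reads to lie in exons, which was not tested. That scale put 28 of 28 members at 1 or more, where 35.5% of all genes with a length and 54.1% of protein-coding genes stood, with a median of 8.87. The order of the members depended on the scale: 26 of 28 changed rank, 12 by at least 5 places, and 2 of the 5 highest by RPKM were among the 5 highest per kilobase of exon. On these scales and on another, per kilobase of the longest coding transcript, Sqle was always among the 5 highest, and Ebp and Abcg1 were always among the 5 lowest.

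**Figure D1:**
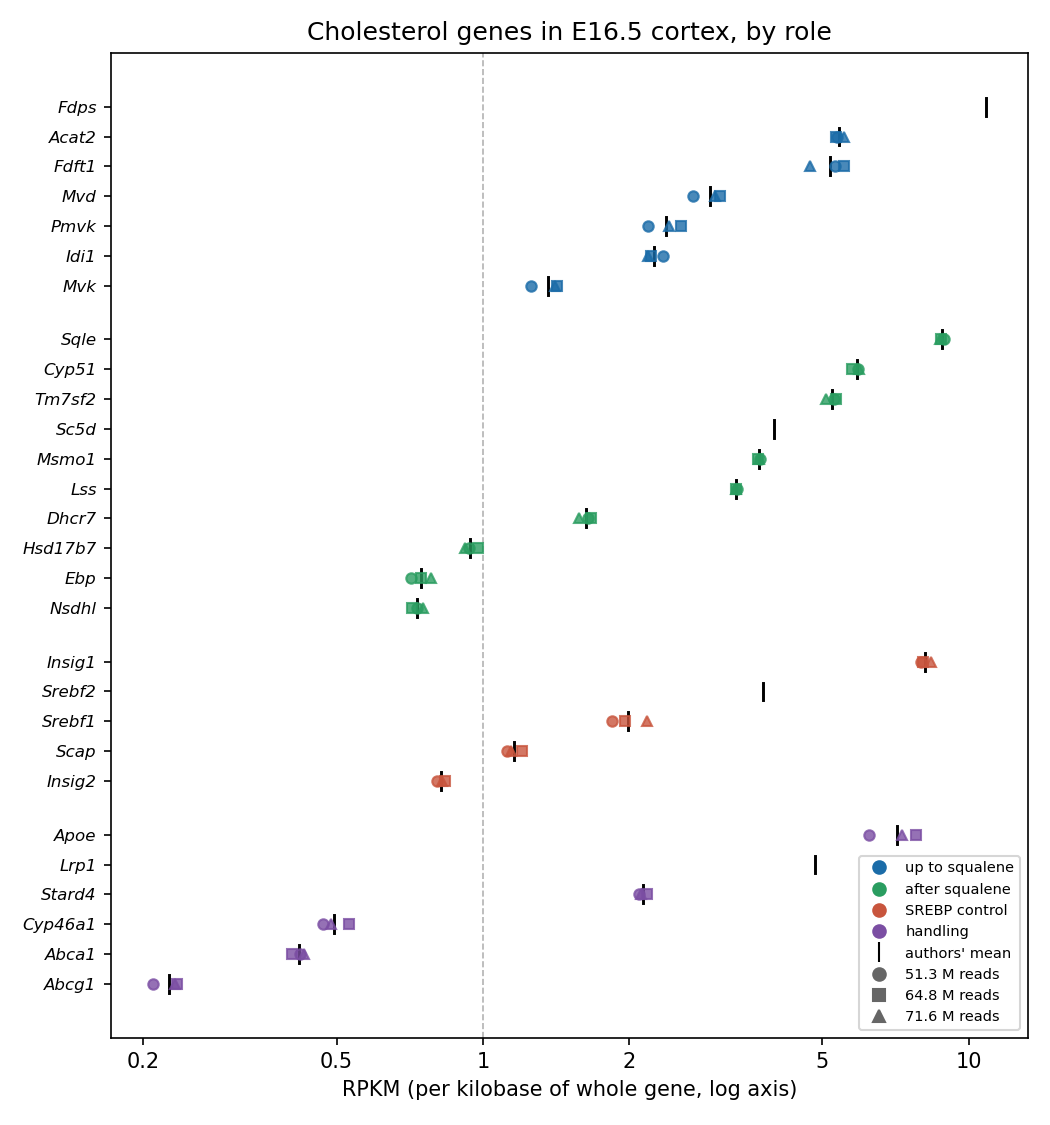
RPKM of each measured member on a log axis, grouped by role, with the authors' mean as a black bar and a symbol for each library where its reads could be solved. The dashed line marks 1 RPKM, with 7 members below it, and the libraries of a gene lie within 1.25-fold of each other, the widest being Apoe.

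Values of single libraries were recovered from the digits of the mean. The low values give libraries of 51.3, 64.8 and 71.6 M reads, which cannot be tied to the numbered samples and are named by size. For 24 of 28 members, the search found a set of whole reads per library that gave the deposited mean to about its last digit. The match was not exact for all, with the largest difference, -1.33e-14 RPKM, in Fdft1. It stopped at the first length that gave one, so other lengths may give other sets. The search looked only within 15% of equal shares, so it could not find a gene with libraries farther apart. Fdps, Sc5d and Srebf2 gave no solution and Lrp1, with the most reads, was not searched, so these have a mean only. The highest library was 1.01 to 1.25 times the lowest, with a median of 1.06, and 16 of 24 members stayed within 1.1-fold. Among 23 neighbours in the order by RPKM, 19 had ranges that did not overlap, and 4 pairs did: Tm7sf2 and Fdft1, Pmvk and Idi1, Stard4 and Srebf1, and Ebp and Nsdhl. The smallest library was the lowest in 12 of 24 members and the middle library the highest in 13.

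The enzymes up to squalene were all at 1 RPKM or more, 7 of 7 measured, where 31.6% of protein-coding genes were. The median of these enzymes was 2.93 RPKM and 15.5 per kilobase of exon. Acat2, the cytosolic thiolase that joins acetyl-CoA units, stood at 5.35, 5.33 and 5.55 RPKM in the 51.3, 64.8 and 71.6 M libraries. Libraries are given in this order throughout. Its 3 values were within 1.1-fold, and per kilobase of exon it rose in rank from 6 to 2, at 38.0. Acat2 transcripts resemble those of Acat3 (0.0340 RPKM) and share 445 bases with Tcp1 (21.3 RPKM), so reads in the shared stretches are uncertain.

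The kinases and the decarboxylase that carry mevalonate to isopentenyl diphosphate were lower than Acat2. Mevalonate kinase, Mvk, was at 1.26, 1.42 and 1.41 RPKM. Phosphomevalonate kinase, Pmvk, was at 2.19, 2.56 and 2.41 RPKM. The decarboxylase Mvd was at 2.70, 3.08 and 3.01 RPKM. Each of the 3 was lowest in the smallest library. Per kilobase of exon they stood at 8.30, 13.8 and 15.5, in the same order, but per kilobase of coding transcript Pmvk, at 19.8, was above Mvd, at 16.4. Pmvk was also above Mvd per kilobase of exon when its annotated span was used, at 20.2.

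Idi1, which isomerises isopentenyl diphosphate, was at 2.35, 2.22 and 2.19 RPKM, highest in the smallest library, and its range overlapped that of Pmvk. It was the lowest of these enzymes per kilobase of exon, at 4.46. Fdps, which makes farnesyl diphosphate, had the highest mean of the whole set at 10.8 RPKM. Fdft1, squalene synthase, which commits farnesyl diphosphate to sterols, was at 5.30, 5.55 and 4.71 RPKM, lowest in the largest library. Fdps was 2.09 times Fdft1 by RPKM, with a counting interval of 2.06 to 2.14, but 0.511 times it per kilobase of exon, where Fdft1 led the set at 42.2, and 1.36 times it per kilobase of coding transcript. The order of this pair therefore rests on the length. Processed pseudogenes close in sequence to Fdps, Fdft1 and Idi1 were listed at 0.107 RPKM or less or had no value. Fdft1 also shares 774 bases of exon (18.3%) with Ctsb on the opposite strand, at 5.82 RPKM, and Fdps shares 26.7% with a predicted gene that has no value. The sources used here do not give whether counting used the strand.

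**Figure D2:**
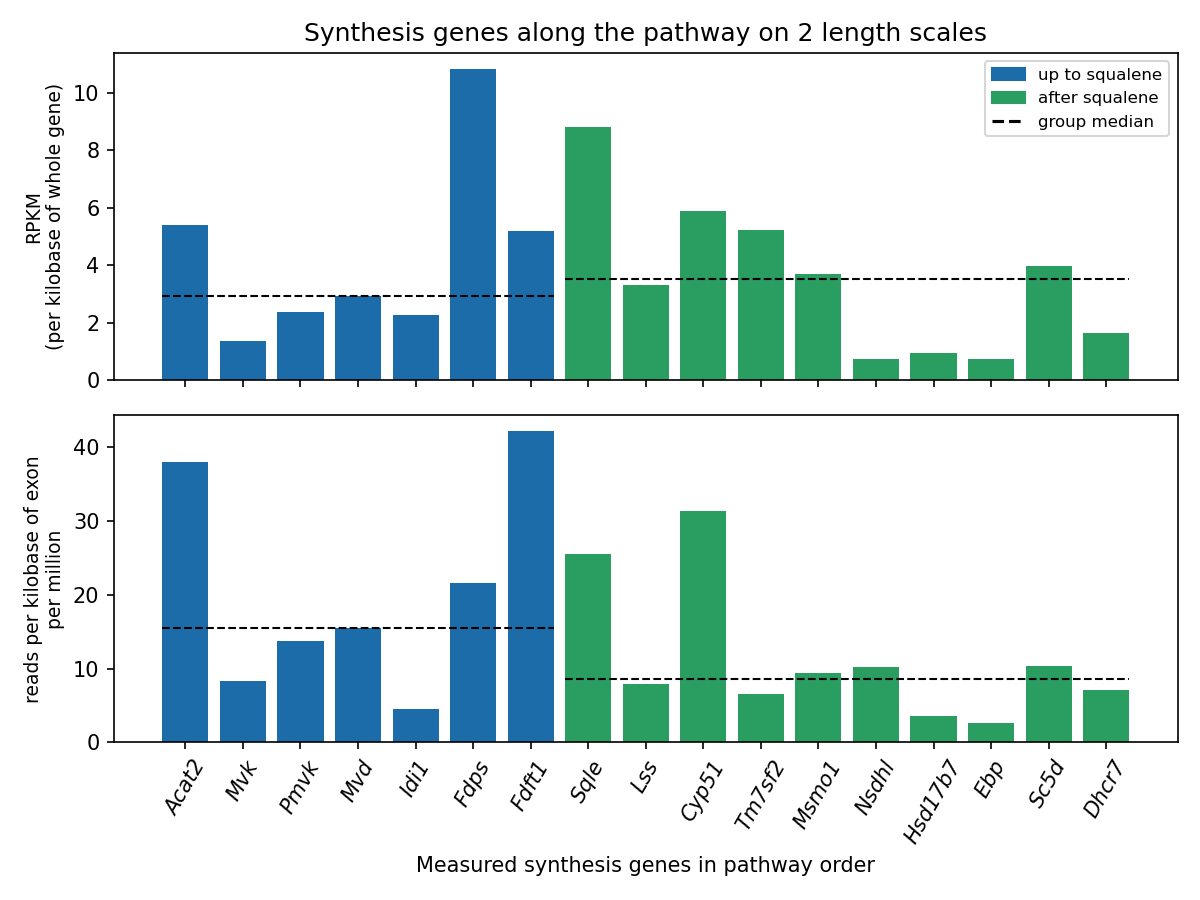
Levels of the 17 measured synthesis genes in pathway order, as the authors' mean in RPKM (top) and per kilobase of exon (bottom), with dashed lines at the group medians. The later enzymes have the higher median by RPKM, 3.51 against 2.93, and the lower one per kilobase of exon, 8.65 against 15.5.

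Of the 10 enzymes from squalene onward, 7 were at 1 RPKM or more, where 31.6% of protein-coding genes were. The median of these enzymes was 3.51 RPKM and 8.65 per kilobase of exon. Sqle, which oxidises squalene and controls flux into sterols, led them at 8.90, 8.77 and 8.74 RPKM (chr15:59315077-59331192, plus strand, GENCODE M21 on GRCm38). Its libraries lay close together. Lss, which closes the rings to give lanosterol, was at 3.33, 3.31 and 3.33 RPKM, the tightest of the 24 members with library values. Sqle was 2.65 times Lss by RPKM (counting interval 2.60 to 2.70), 3.25 times per kilobase of exon and 2.83 times per kilobase of coding transcript, an order kept on each scale.

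Cyp51, Tm7sf2 and Msmo1, which act next on lanosterol and its products, had means of 5.88, 5.24 and 3.70 RPKM. Cyp51, the lanosterol demethylase, was at 5.93, 5.74 and 5.96 RPKM. Tm7sf2, a sterol reductase, was at 5.29, 5.33 and 5.09 RPKM, overlapping the range of Fdft1. Msmo1, the methylsterol oxidase, was at 3.73, 3.69 and 3.70 RPKM. Cyp51 was also high per kilobase of exon, at 31.4, while Tm7sf2 went from rank 7 to rank 21, at 6.60, and to rank 11 per kilobase of coding transcript. Annotated exons cover 79.3% of the span of Tm7sf2, and 532 bases of them (12.1%) are shared with Vps51 on the same strand, at 2.64 RPKM.

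Nsdhl, Hsd17b7 and Ebp were the synthesis genes under 1 RPKM. Nsdhl, the dehydrogenase that completes demethylation with Msmo1, was at 0.731, 0.716 and 0.752 RPKM, and Ebp, the sterol isomerase, at 0.712, 0.747 and 0.782 RPKM. These ranges overlapped. Hsd17b7, the keto reductase of the same demethylation steps, was at 0.935, 0.977 and 0.917 RPKM, apart from both. Per kilobase of exon they separated: Nsdhl, a long gene of 40.0 kb, was at 10.3, Hsd17b7 at 3.64 and Ebp at 2.65. Ebp had the fewest reads of the set, 1153 over all libraries.

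The last reductions and desaturation are carried out by Sc5d and Dhcr7, whose loss in people causes malformation syndromes. Dhcr7 was at 1.64, 1.67 and 1.57 RPKM, and Sc5d had a mean of 3.98 RPKM. Dhcr7 was 0.410 times Sc5d by RPKM (counting interval 0.397 to 0.422) and 0.684 times per kilobase of exon, but 1.39 times it per kilobase of coding transcript.

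The SREBP machinery had a median of 1.99 RPKM and 8.31 per kilobase of exon, with 4 of 5 genes at 1 RPKM or more. The share of protein-coding genes at that level was 31.6%. Srebf2, whose product acts mainly on cholesterol genes, had a mean of 3.78 RPKM. Srebf1, whose product acts mainly on fatty acid genes in one of its isoforms, was at 1.84, 1.96 and 2.18 RPKM, lowest in the smallest library and highest in the largest. Srebf2 was 1.90 times Srebf1 by RPKM (counting interval 1.84 to 1.92), 3.68 times per kilobase of exon and 3.98 times per kilobase of coding transcript. Scap, the escort, was at 1.12, 1.20 and 1.14 RPKM.

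The Insig pair was more uneven than the Srebf pair by RPKM, and less so per kilobase of exon, per kilobase of coding transcript and by reads. Insig1, which is itself an SREBP target, was at 7.98, 8.06 and 8.35 RPKM, and Insig2 at 0.806, 0.835 and 0.822 RPKM. No library of one came near those of the other. The ratio was 9.90 by RPKM (counting interval 9.57 to 10.3), 2.85 per kilobase of exon and 2.54 by reads alone. The gene of Insig1 spans 7.25 kb and that of Insig2 spans 28.2 kb. The size of this difference thus moved with the length, and its direction did not.

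**Figure D3:**
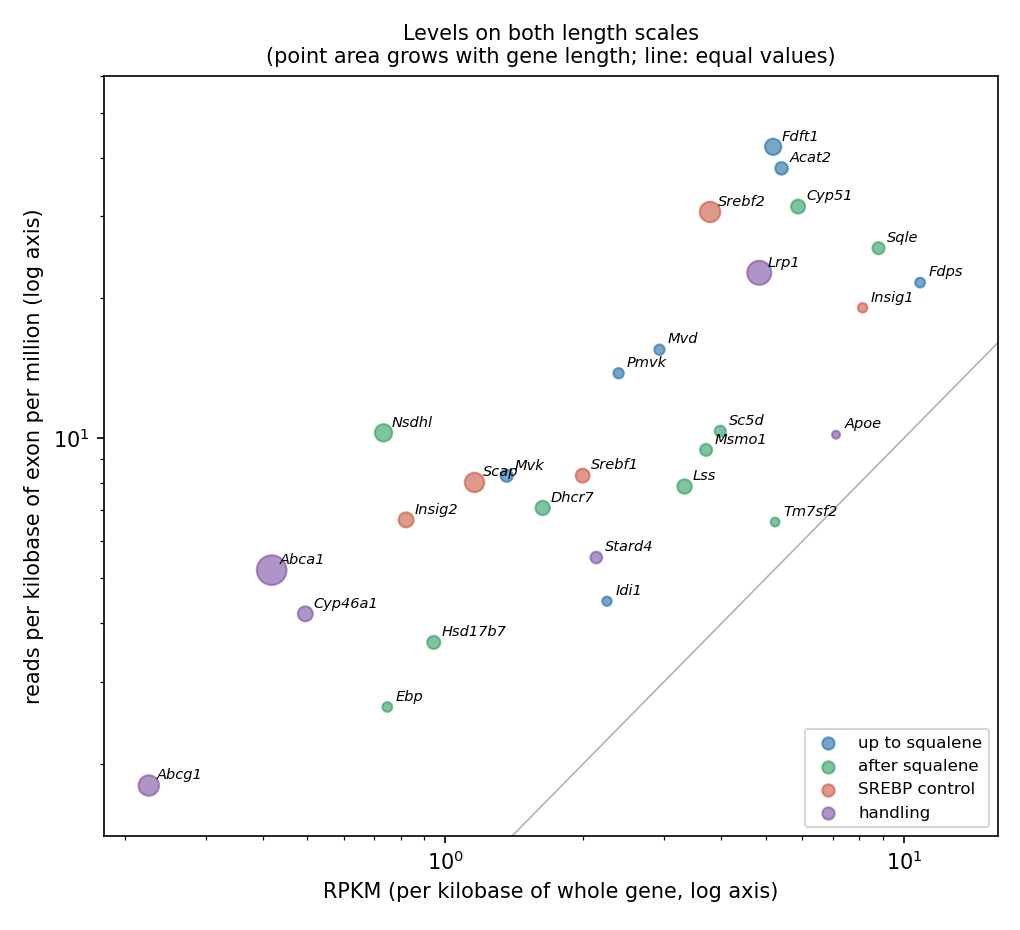
Each measured member by RPKM (horizontal) and by reads per kilobase of exon per M reads (vertical), both on log axes, coloured by role, with larger points for longer genes. All but Tm7sf2 and Apoe lie well above the line of equal values, and the long genes Nsdhl and Abca1 lie farthest from it.

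Genes of cholesterol handling had the lowest median, 1.31 RPKM and 5.37 per kilobase of exon, and by RPKM ranged from 0.225 to 7.11. Apoe, the main apolipoprotein of brain, was at 6.25, 7.79 and 7.30 RPKM. It varied most of all solved members, 1.25-fold, and was lowest in the smallest library. Lrp1, a large receptor that takes up ApoE particles, had a mean of 4.84 RPKM. Apoe was 1.47 times Lrp1 by RPKM (counting interval 1.44 to 1.53), 0.449 times per kilobase of exon and 0.573 times per kilobase of coding transcript. Stard4, which carries sterol between membranes in the cytosol, was at 2.10, 2.18 and 2.12 RPKM, overlapping Srebf1, and at 5.54 per kilobase of exon.

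The enzyme and the exporters that remove cholesterol from cells were all below Stard4 by RPKM. Per kilobase of exon Abca1 came close to it, and per kilobase of coding transcript Cyp46a1 was above it, at 6.51 against 6.07. Cyp46a1, the hydroxylase through which neurons release cholesterol as an oxysterol, was at 0.470, 0.529 and 0.486 RPKM. Abca1, which loads lipid onto apolipoproteins, was at 0.420, 0.404 and 0.429 RPKM. Abcg1, which passes sterol to formed particles, was at 0.209, 0.234 and 0.233 RPKM. Their ranges did not overlap. Abcg1 was 0.539 times Abca1 by RPKM (counting interval 0.519 to 0.567) and 0.345 times per kilobase of exon, where Abca1 stood at 5.21 and Abcg1 at 1.79. Cyp51, which makes sterols, was 11.9 times Cyp46a1, a related enzyme that clears them, by RPKM (counting interval 11.4 to 12.3) and 7.49 times per kilobase of exon.

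**Figure D4:**
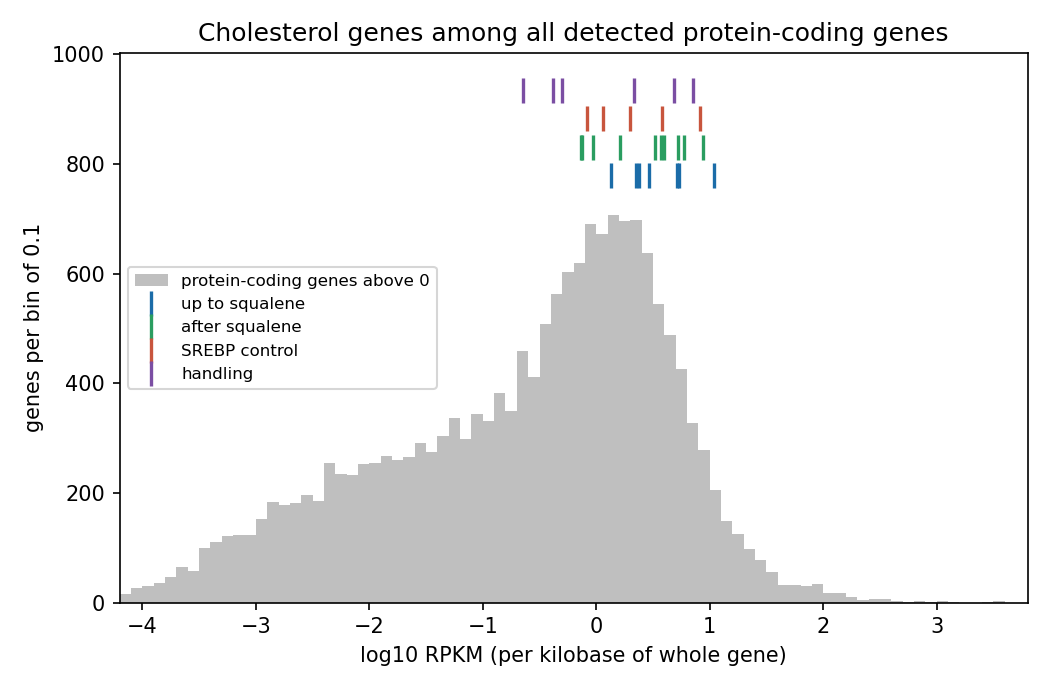
Number of protein-coding genes listed above 0 per bin of log10 RPKM (grey), with a coloured tick for each measured member by role. All measured members but Abca1 and Abcg1 lie to the right of the median of the grey genes, 0.450 RPKM.

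Between roles, synthesis genes stood above control genes by 0.71 and above handling genes by 1.57, as differences of medians of log2(RPKM + 0.1), a scale that understates differences of low genes. The former turned to -0.52 when reads were taken with no length. The latter turned to -0.33 among members at 1 RPKM or more, which leaves 3 handling genes. Genes up to squalene stood below those after it by RPKM, a difference of -0.25, but above them by 0.84 per kilobase of exon and by 0.28 per kilobase of coding transcript. Genes are not replicates, so these differences have no error between samples, and the earlier and later steps have no fixed order here.

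Other genes of the pathway were listed by name and not by level. Further synthesis genes at 1 RPKM or more were the mitochondrial thiolase Acat1 at 4.41 RPKM, Ggps1, which makes geranylgeranyl diphosphate, at 2.65 RPKM, and Lbr, a nuclear envelope protein with the same reductase activity as Tm7sf2, at 1.01 RPKM. Of 5 further control genes, 2 were at 1 RPKM or more, where 31.6% of protein-coding genes were. Per kilobase of exon 4 of the 5 reached 1, where 54.1% of protein-coding genes did. The oxysterol receptor Nr1h2 (LXR beta) was at 9.82 RPKM and Nr1h3 (LXR alpha) at 0.0654 RPKM, and of the proteases that cut SREBP, Mbtps1 was at 2.07 RPKM and Mbtps2 at 0.813 RPKM.

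Of 17 further handling genes, 8 were at 1 RPKM or more, against the same 31.6% of protein-coding genes. Per kilobase of exon 12 of the 17 reached 1, against 54.1% of protein-coding genes. The transporter Abca2 was at 5.13 RPKM, the reelin and ApoE receptor Lrp8 at 4.47 RPKM and the lysosomal sterol carrier Npc2 at 4.29 RPKM. The lowest by RPKM was the sterol hydroxylase Cyp27a1 at 0.00498 RPKM, and none was listed at 0. The order differed per kilobase of exon, with Lrp8 at 31.7 above Abca2 at 12.2. On that scale Cyp27a1, at 0.0558, was not the lowest.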

How the data were processed

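Libraries were made with a TruSeq protocol from Trizol RNA and sequenced on a HiSeq instrument, per the labels' protocols. The authors deposited 1 column of RPKM, their mean over 3 libraries. Per the submitters' processing notes, the build was mm9 (NCBIM37) and the tools, with no role given, were DESeq 1.16.0, HTSeq 0.6.0, Cuffdiff 2.0.2, TopHat2 2.0.9 and Bowtie2 2.1.0. The sources used here do not give whether each library is a separate animal.

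Symbols, spans and exons came from GENCODE M21 (GRCm38), a later build than the authors' own, and 32919 of 37991 IDs matched. Values were computed with Python 3.11.15, numpy 2.4.6 and pandas 2.3.3, and similar transcripts (at least 95% identity over 200 bases) were found with BLAST+ 2.17.0. Library totals came from low values worth 1 read (within 0.5%), and counting intervals (exact, 95%) from summed reads cover counting error only.

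Reads per library were solved after the data were seen, in 3 rounds of search. An early round with annotated lengths, a wider tolerance and a limit of 0.05 on expected chance solutions solved 19 members. The final one, with a tolerance near the last written digit and a limit of 0.01, kept these 19 and added 5 (Scap, Insig1, Cyp46a1, Abcg1 and Apoe). It used the same annotated lengths of genes and transcripts and then lengths up to 3000 bases from the annotated span. It stopped at the first solution, and 7 solutions used a length other than the span. Abcg1 took 4481 lengths. By the chance solutions expected in the final round, the least certain solved members were Insig1 (0.0058), Abcg1 (0.0054) and Scap (0.0045). The 0.047 chance solutions expected over all members cover the final round alone. Solved lengths replaced the spans in values per kilobase of exon or transcript, a change made after values with the span were seen. Apart from the 3 motifs reported, 3 others were searched in a trial and are not used.

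All members are named, and of the other lists the 3 highest and the lowest above 0, except that 1 gene this rule names is not reported here. The markers were named beyond this rule after their values were seen. Members and lists were chosen with earlier results of these data known. Alternatives were other pseudocounts (1 and 0.01), thresholds (0.5 and 2), length scales, a filter, the mean and leaving out libraries.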

Additional observations from a re-analysis of the deposited data

How the results depend on the processing

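No paired analysis was possible because the only column is a mean of 1 group. The count of 21 members at 1 RPKM or more became 25 at a threshold of 0.5 and 17 at 2. It was 28 per kilobase of exon or coding transcript and 21 with each library left out in turn. All lie within 1.5 times of 21, but only 28 members were measured, so no rise could have passed that limit. The counts with a library left out had little room to move. Members without library values were held at their mean, and the search for the other members looked only near equal shares. Differences of log2 medians follow as synthesis minus control, synthesis minus handling and up to squalene minus after squalene, with 0.71, 1.57 and -0.25 as reported. They were 0.53, 0.998 and -0.20 with a pseudocount of 1, and the handling difference was 1.68 with 0.01. Per kilobase of exon they were 0.30, 0.92 and 0.84, and with the annotated span for every gene the last was 1.22. Per kilobase of coding transcript they were 0.36, 1.52 and 0.28. By reads with no length they were -0.52, 0.66 and -0.65. Among members at 1 RPKM or more they were 0.47, -0.33 and -0.43. With means they were 0.35, 1.10 and 0.44, and the cause of that reversal was not tested. The filter at 1 RPKM leaves fewer genes. Over members with library values they were 0.90, 2.35 and -0.32, and leaving out each library gave 0.87 to 0.92, 2.32 to 2.37 and -0.36 to -0.26. The coding-transcript scale, the annotated span for every gene, the members with library values and leaving out libraries were chosen after seeing the data. Of 24 settings of the 8 gene ratios, 6 reversed: Apoe to Lrp1 at 0.449 per kilobase of exon, 0.0547 by reads and 0.573 per kilobase of coding transcript, Fdps to Fdft1 at 0.511 per kilobase of exon and 0.511 by reads, and Dhcr7 to Sc5d at 1.39 per kilobase of coding transcript. Length alone separates these scales. Depth limits little: with 3 reads as the floor for a count of 0, a gene of 10 kb could reach 0.00160 RPKM unseen.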

Other observations

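The start sites of 3 members lay close to that of a gene on the opposite strand in GENCODE M21. Mvk and Mmab, a gene of vitamin B12 metabolism, start 209 bases apart, and stood at 1.36 and 1.28 RPKM. Nsdhl and Cetn2, a centrin of the centriole, start 146 bases apart and stood at 0.733 and 4.21 RPKM. Dhcr7 and Nadsyn1, a gene of NAD synthesis, start 296 bases apart and stood at 1.63 and 0.205 RPKM. The pairs thus ranged from close levels to a gap of several fold in either direction by RPKM. By reads with no length, each member was above its neighbour: Mvk at 4196 against 3132, Nsdhl at 5503 against 3859 and Dhcr7 at 7715 against 1047. The direction for Nsdhl therefore rests on the length.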
